A study of Mus musculus with 4 samples.

Results

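Tex2, Ptcd1 and Dctn6 are 3 protein-coding genes whose promoters carried high MIZ-1 peaks in wild-type B cells. They were chosen by values of these same peak lists. Each had a high MIZ-1WT promoter peak, and the corresponding MIZ-1DPOZ peak was lower, displaced, given to another gene or, at Dctn6, not listed. They are 3 of 21951 protein-coding genes in the annotation. Because the heights of the peaks selected the genes, these heights are described here and are not tested.

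MIZ-1 was mapped by ChIP-seq (antibody H-190) in B220+ cells of the spleen, that is, in B cells. MIZ-1WT cells came from wild-type mice. MIZ-1DPOZ cells (labelled Miz-1 delta POZ) came from Miz-1 floxPOZ mice that carried MB1-Cre, in which Cre under control of Mb1 (Cd79a) removes the POZ domain in B cells and leaves a truncated MIZ-1. All mice were on a C57BL/6 background, and the study states a range of ages for its animals but none per library, nor how many mice gave the cells of a library. Each genotype had 1 ChIP library and 1 input library, without replicates. Peak lists carry no expression values, so the cell type was not checked against markers. The total depth is not known, but from the most common background of each list divided by its smallest peak width the MIZ-1DPOZ library was deeper by a factor of 1.34, and its values are divided by this factor where they are given at MIZ-1WT depth. The study describes fewer follicular B cells and a higher frequency of marginal zone B cells in the MIZ-1DPOZ spleen. A change within cells and a change in the mixture of cells therefore cannot be told apart.

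MIZ-1 (Zbtb17) is a transcription factor with a POZ domain at its amino terminus, which serves multimerisation and contacts to cofactors, and zinc fingers that bind DNA. It can activate genes near their start sites, and it can repress them when bound by MYC. TEX2 is a protein of the endoplasmic reticulum with an SMP domain, a lipid-carrying fold found at membrane contact sites. PTCD1 is a pentatricopeptide repeat protein that acts on mitochondrial RNA. DCTN6 is a subunit of the pointed end of dynactin, the complex that joins dynein to its cargo and to microtubules.

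Sequences at the MIZ-1WT promoter summits of Tex2 and Ptcd1, and near that of Dctn6, are shown first. The matches found in them are referred to later. All are read from mm10 (GRCm38) on the minus strand, the coding strand of each gene, with matches to the palindromes CGATCG or ATCGAT and to the GC box GGGCGG in capitals. The Tex2 stretch (chr11:106613001-106613201) is the 201 bp centred on the summit and lies wholly upstream of the gene. The Ptcd1 stretch (chr5:145167109-145167212) is the whole of the 104 bp between the starts of Ptcd1 and of its divergent neighbour Cpsf4. For Dctn6 (chr8:34108460-34108489), 30 bases around the match are given. They do not reach the summit, which lay at 34108530 in an untranslated region.
Tex2: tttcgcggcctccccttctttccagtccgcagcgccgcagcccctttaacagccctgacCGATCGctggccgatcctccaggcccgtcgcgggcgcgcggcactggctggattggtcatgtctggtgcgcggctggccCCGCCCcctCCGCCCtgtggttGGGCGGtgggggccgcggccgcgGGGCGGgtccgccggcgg
Ptcd1: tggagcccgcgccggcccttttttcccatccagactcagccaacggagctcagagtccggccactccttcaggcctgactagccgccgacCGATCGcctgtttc
Dctn6: caggctgcaaaaATCGATctcagctcttcc

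At Tex2 (ENSMUSG00000040548.16, chromosome 11, 106502147 to 106612930, minus strand) the promoter was occupied in both lists but with very different heights. The MIZ-1WT peak lay from 106612931 to 106613239, beginning at the base before the first start site, with its summit 171 bp upstream of that start. Its summit pileup, the number of fragments over the summit solved from the deposited fold and p-value, was 52 against a local background of 1.66. The fold enrichment was 19.9 and the −log10 q 53.7. The MIZ-1DPOZ peak lay from 106612487 to 106613198 and crossed the start site, with its summit 118 bp upstream of it. This peak held 18 fragments at its summit, with a fold of 7.91 and a −log10 q of 11.9. It was 712 bp wide, compared with 309 bp in the MIZ-1WT list, and 268 bp were common to both.

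Expressed at the depth of the MIZ-1WT library, the Tex2 pileup in the MIZ-1DPOZ list was 13.4 fragments. The depth-scaled ratio between the genotypes (MIZ-1DPOZ over MIZ-1WT) was 0.258 (exact 95% interval 0.142 to 0.449, counting error only). Among single-copy promoter peaks, 56 of 8059 were higher than the Tex2 peak for MIZ-1WT and 774 of 14681 for MIZ-1DPOZ, in lists of unequal length. The summits were 53 bp apart. Over all 6403 shared promoter peaks the median distance was 85 bp (quartiles 35 and 171). It was 16.5 bp (quartiles 5 and 29.5) at the 72 shared single-copy promoter peaks with a MIZ-1WT pileup of at least 40. Displacement was among the reasons for choosing the genes, so this distance was not tested. A single-copy summit is one whose surrounding sequence occurs once on the standard chromosomes, and the promoter summits of all 3 genes met this condition.

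At Ptcd1 (ENSMUSG00000029624.10, chromosome 5, 145147514 to 145167108, minus strand) both genotypes had a high promoter peak at nearly the same place. The MIZ-1WT peak lay from 145167002 to 145167347 and the MIZ-1DPOZ peak from 145167032 to 145167381, with 316 bp in common. Their summits, at 145167158 and 145167162, were 4 bp apart. For MIZ-1WT, 61 fragments lay over the summit, with a fold of 19.7 and a −log10 q of 60.8. For MIZ-1DPOZ there were 46, with a fold of 13.5 and a −log10 q of 37.8. At MIZ-1WT depth the latter corresponds to 34.3 fragments, a ratio of 0.562 (0.375 to 0.838). Of the same 8059 and 14681 single-copy promoter peaks, 44 were higher for MIZ-1WT and 49 for MIZ-1DPOZ.

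The Ptcd1 promoter is shared with Cpsf4 (ENSMUSG00000029625.16), which encodes a subunit of the mRNA cleavage and polyadenylation complex and is transcribed in the opposite direction from starts at 145167213, 145167224, 145167247 and 145167254. Both peaks covered the start of Ptcd1 and all 4 starts of Cpsf4. The MIZ-1WT summit lay 50 bp from the start of Ptcd1, its nearest start. The MIZ-1DPOZ summit lay 54 bp from that start and 51 bp from the nearest start of Cpsf4. When each peak was given to the start nearest its summit, the MIZ-1WT peak therefore went to Ptcd1 and the MIZ-1DPOZ peak to Cpsf4, with both peaks over both genes.

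At Dctn6 (ENSMUSG00000031516.11, chromosome 8, 34090423 to 34108796, minus strand) promoter peaks were listed for MIZ-1WT but none for MIZ-1DPOZ. The annotation gives 3 starts, at 34108796, 34108536 and 34107852, and the starts of Gm10131 and Mboat4 lie further upstream, at 34111737 and 34115030. The higher MIZ-1WT peak lay from 34108326 to 34108663 around the second start, with its summit 6 bp from it, within an untranslated region. It had 19 fragments at the summit, a fold of 10.1 and a −log10 q of 14.6. The second MIZ-1WT peak lay from 34108755 to 34108902 over the first start, with 9 fragments, a fold of 5.14 and a −log10 q of 3.88. The nearest MIZ-1DPOZ summit was 11204 bp away from the higher peak, inside the gene.

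A peak list does not show how many fragments lay at a place where no peak was called. At the background most common in the MIZ-1DPOZ list, the smallest listed pileup was 6 fragments, seen at 57 of 37142 such peaks. This is 4.48 fragments at MIZ-1WT depth, or 0.236 of the Dctn6 pileup, and marks where listing began and not a measured value. A narrow site can also stay unlisted, since no MIZ-1DPOZ peak was under 173 bp wide.

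**Figure D1:**
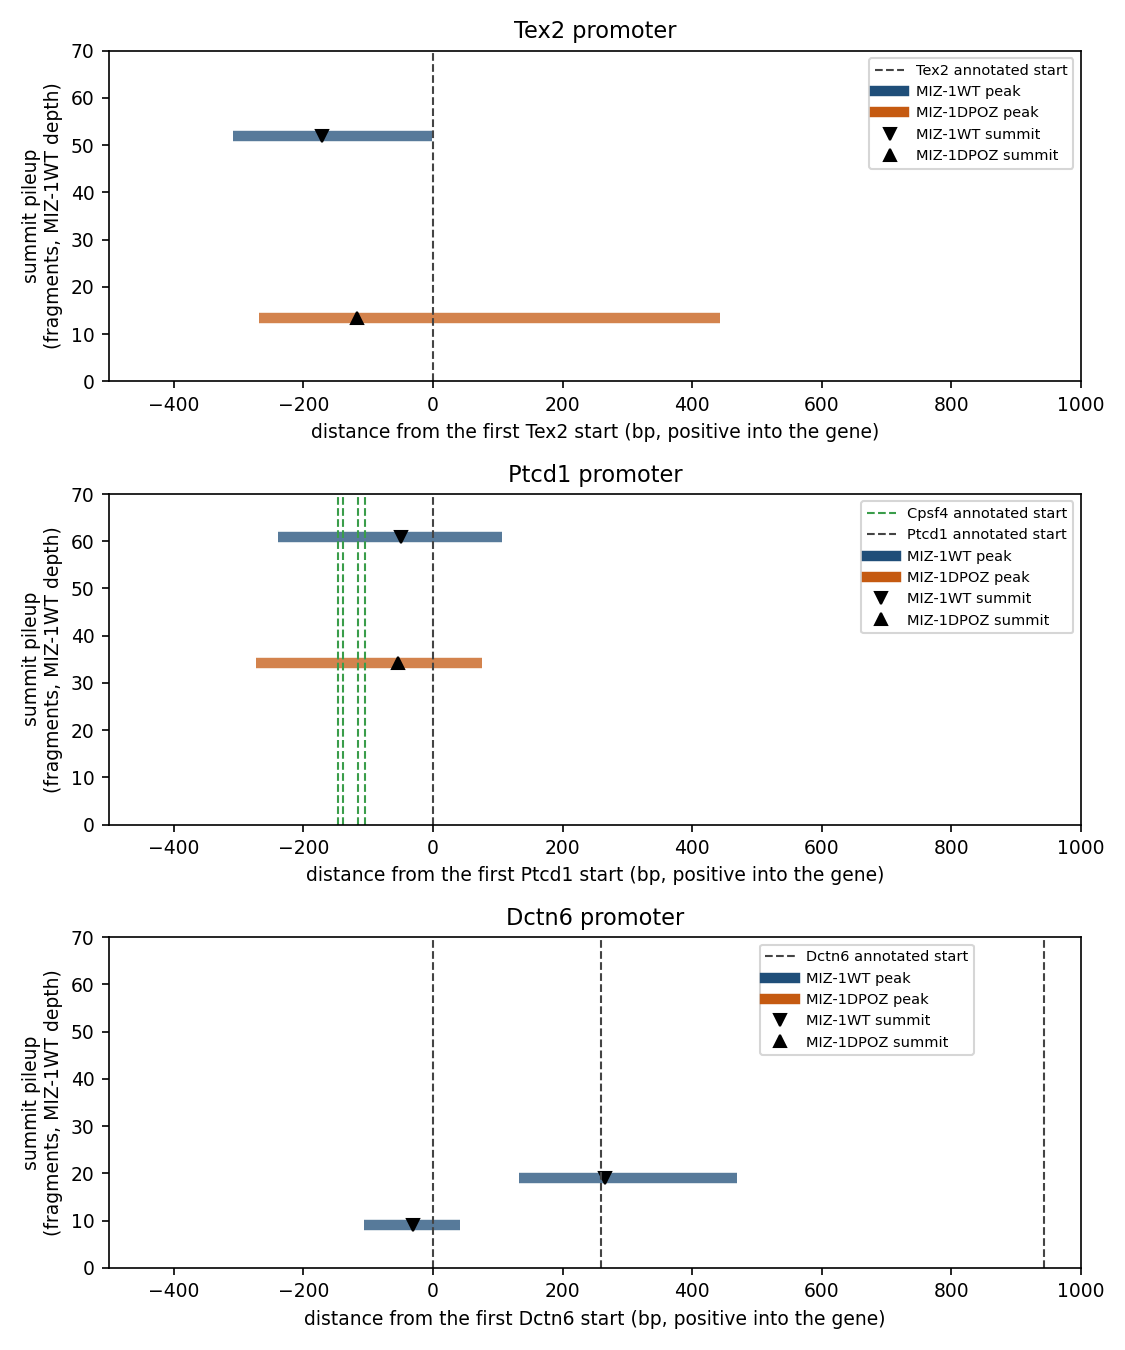
Promoter peaks of Tex2, Ptcd1 and Dctn6. Horizontal bars span each listed peak (x axis, bp from the first start of the gene, positive into the gene) at the height of its summit pileup (y axis, fragments at MIZ-1WT depth). Triangles mark summits and dashed lines annotated starts. The Tex2 peak had 52 fragments for MIZ-1WT and 13.4 for MIZ-1DPOZ, where it reached into the gene, the Ptcd1 summits lay 4 bp apart, and Dctn6 had MIZ-1WT peaks at its first and second starts and no MIZ-1DPOZ peak.

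Within the gene bodies, both lists held low peaks. In Tex2, a MIZ-1WT peak of 8 fragments (106584221 to 106584667) lay in an intron, 5195 bp from the second Tex2 start at 106579113, and overlapped a pair of MIZ-1DPOZ peaks of 11 and 7 fragments, whose summits were 26 bp and 289 bp from its own. A further MIZ-1DPOZ peak of 9 fragments (106513464 to 106513636) had no MIZ-1WT counterpart. In Ptcd1, an intron peak had 11 fragments for MIZ-1WT (145162413 to 145162663) and 14 for MIZ-1DPOZ (145162339 to 145162658), and their summits were 24 bp apart. In Dctn6, the lists held an intron peak each that did not overlap, with 8 fragments at 34095997 to 34096144 for MIZ-1WT and 14 at 34097263 to 34097444 for MIZ-1DPOZ. At MIZ-1WT depth, the gene body peaks of all 3 genes lay between 5.22 and 11 fragments in either list.

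**Figure D2:**
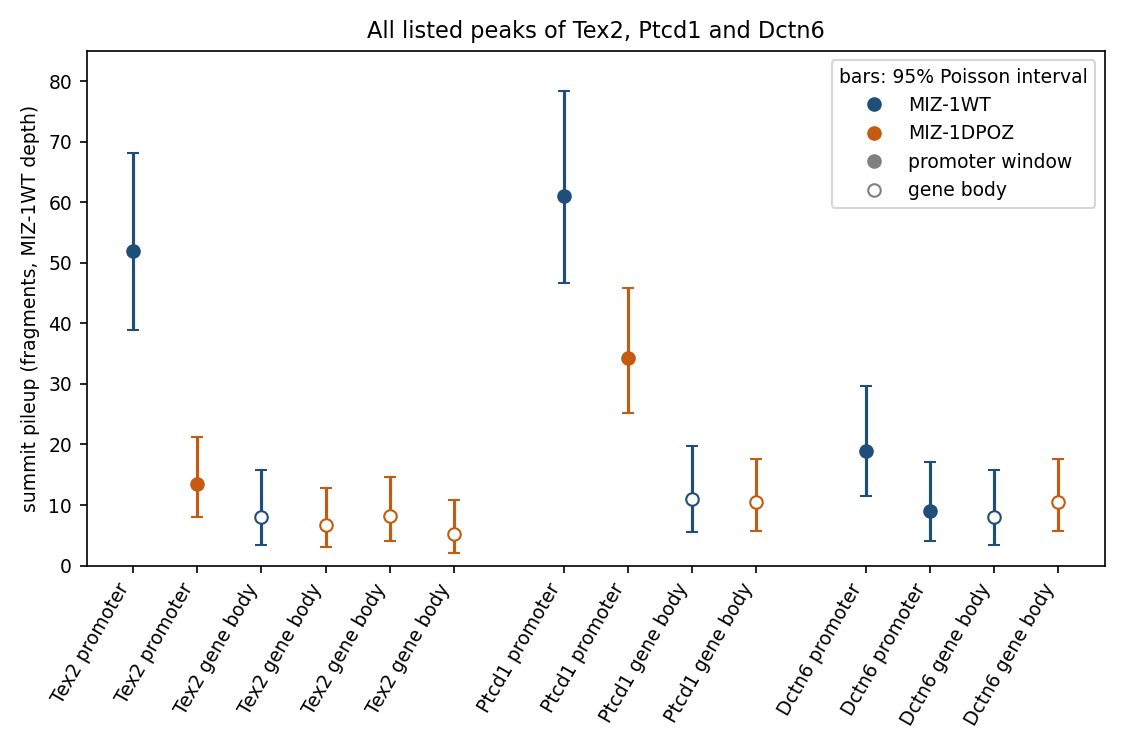
Summit pileups of every listed peak of the 3 genes. The y axis gives fragments at MIZ-1WT depth, with 95% Poisson intervals that cover counting error only. Filled points are promoter peaks and open points gene body peaks. The MIZ-1WT promoter peaks of Tex2 and Ptcd1 (52 and 61 fragments) stand above their MIZ-1DPOZ counterparts (13.4 and 34.3), and the gene body peaks lie at or under 11 fragments.

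These values were set against all MIZ-1WT promoter peaks. A pileup ratio under 0.5 was found at 1.78% of the 6403 promoter peaks that overlapped a MIZ-1DPOZ peak, and at 25.8% of the 97 with a MIZ-1WT pileup of at least 40. Of the 3 genes, Tex2 had a ratio under 0.5, and that of Ptcd1 was also under it (0.481) when scaled by background alone. Among the 72 shared single-copy promoter peaks of at least 40 fragments, the ratio ran from 0.180 to 1.54 with a median of 0.583. It was under 0.5 at 34.7% of these 72. The ratio of Ptcd1 lay close to this median, with 31 peaks lower, and that of Tex2 lay near the bottom, with 7 lower. The MIZ-1WT pileup is also the denominator of the ratio, so classes of high MIZ-1WT pileup hold lower ratios in part by how they were formed.

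No overlapping MIZ-1DPOZ peak was found for 28.5% of the 8957 MIZ-1WT promoter peaks. The share was 20.4% at a pileup of 12 to 19, the class of the Dctn6 peak, and 1.02% at 40 or more, the class of Tex2 and Ptcd1. The Dctn6 peak is 1 of the 258 without an overlap among 1264 promoter peaks in its class. Within single-copy peaks, the share without an overlap was 22.2% (95% Wilson interval 19.8 to 24.7) at 12 to 19 fragments, and none of 72 peaks lacked an overlap at 40 or more (95% Wilson upper limit 5.07%).

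**Figure D3:**
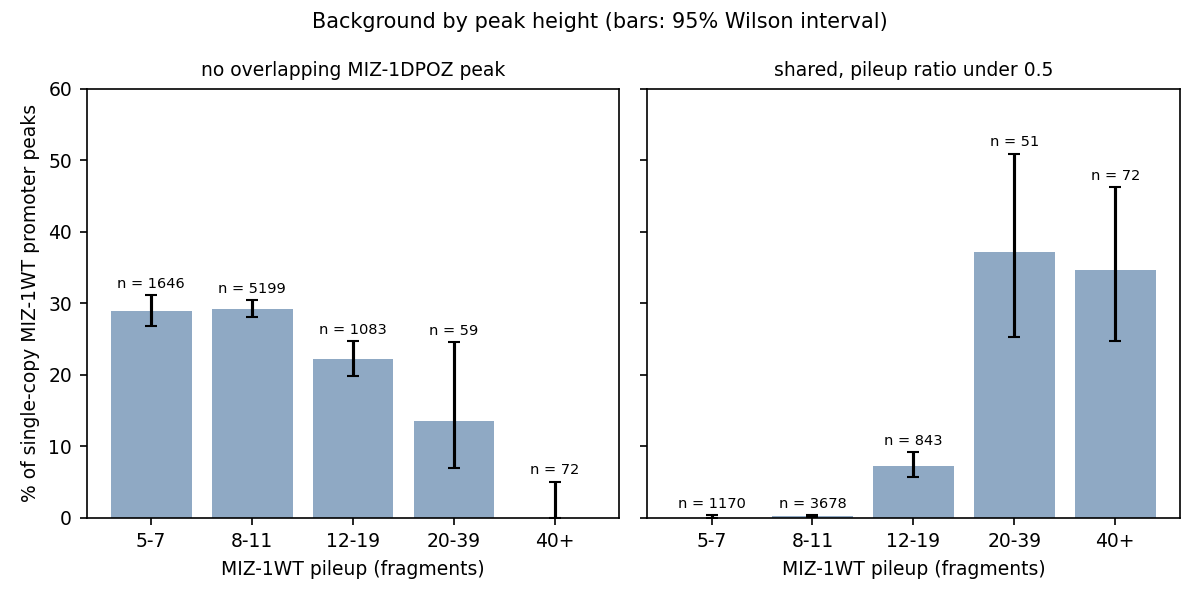
Single-copy MIZ-1WT promoter peaks by summit pileup (x axis, fragments). The y axis gives the percentage with no overlapping MIZ-1DPOZ peak (left) and, among shared peaks, the percentage with a depth-scaled pileup ratio under 0.5 (right), with 95% Wilson intervals. At 12 to 19 fragments, the class of Dctn6, 22.2% had no overlap. At 40 or more, the class of Tex2 and Ptcd1, none of 72 lacked one and 34.7% had a ratio under 0.5.

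The promoters most like those of the 3 genes were found by their distance in log2 MIZ-1WT pileup and log2 ratio over these 2 libraries, among 5345 shared single-copy peaks at protein-coding genes. Nearest to Tex2 were Rbm48 (51 fragments for MIZ-1WT and 17 for MIZ-1DPOZ, ratio 0.249), Nacc1 (53 and 16, 0.225), Palb2 (45 and 17, 0.282), Poc1b (47 and 13, 0.206) and Morc2a (55 and 26, 0.353). Among the nearest to Ptcd1 were Gbe1 (60 and 43, 0.535), Rbsn (64 and 53, 0.618), Pomt1 (59 and 40, 0.506) and Gm17655 (60 and 53, 0.659). For Dctn6, the nearest of 1936 peaks without a MIZ-1DPOZ overlap, by MIZ-1WT pileup alone, were those of Zfp385a (18 fragments), Bend5 (21), and Ahr, Slc17a7 and Zbtb25 (17 each). The summits at these genes lay within 337 bp of a start, except at Slc17a7 (1595 bp) and Gm17655 (2007 bp).

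**Figure D4:**
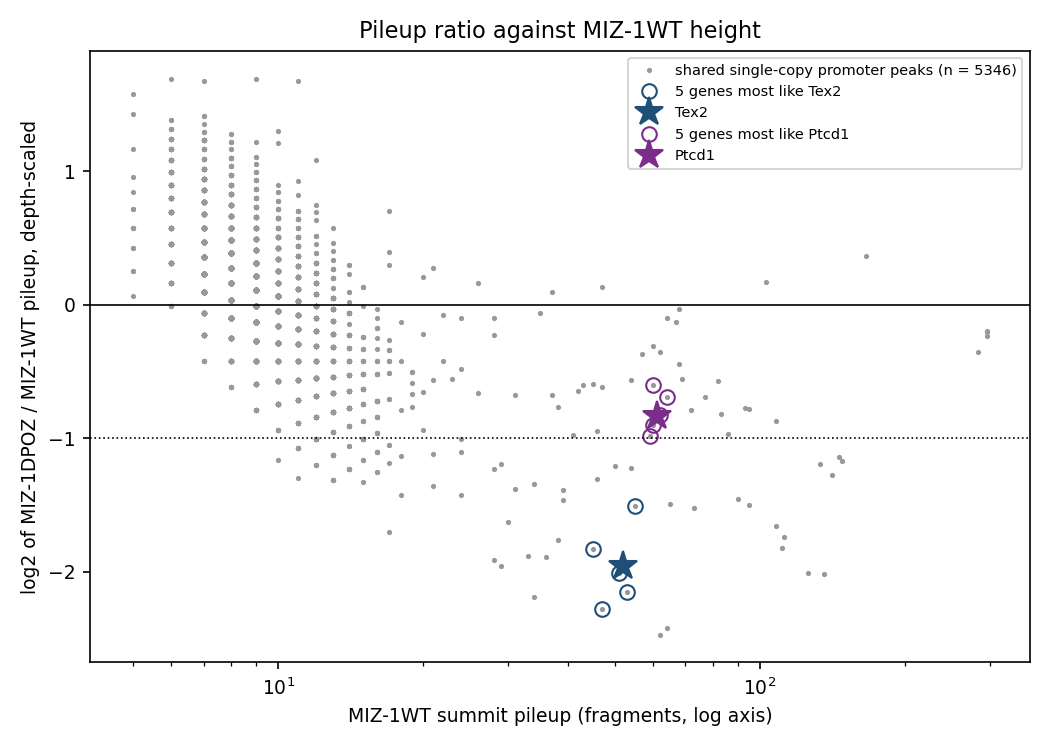
Depth-scaled ratio of MIZ-1DPOZ to MIZ-1WT summit pileup (y axis, log2) against MIZ-1WT summit pileup (x axis, fragments, log axis) at shared single-copy promoter peaks of protein-coding genes. Stars mark Tex2 (52 fragments, log2 ratio -1.95) and Ptcd1 (61 fragments, -0.83), and circles the 5 genes most like each. The dotted line is a ratio of 0.5. Dctn6 has no ratio and is not drawn.

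Genes related to the members by function were examined next, beside the shares over all protein-coding genes. A promoter peak for MIZ-1WT was present at 30.9% of these and one for MIZ-1DPOZ at 48.7%, and 5848 of 21951 had both. Of 12 dynactin genes, 7 had a MIZ-1WT and 7 a MIZ-1DPOZ promoter peak, 4 of them both. Dctn5, which encodes the partner of DCTN6 in the pointed end complex, had 45 fragments for MIZ-1WT and 17 for MIZ-1DPOZ, a ratio of 0.282. This is the peak listed above for Palb2, with its summit at 122132993 on chromosome 7 in the MIZ-1WT list. The actin capping subunits Capza1, Capza2 and Capzb had 9, 12 and 13 fragments in the MIZ-1WT list and ratios of 0.912, 0.684 and 0.803. Dctn3 and Actr1b, like Dctn6, had a MIZ-1WT peak without a MIZ-1DPOZ overlap, with 10 and 6 fragments. Dctn1, Dctn2 and Actr1a had a MIZ-1DPOZ peak alone, with 18, 12 and 10 fragments, and Dctn4 and Actr10 had none. The median ratio of the 4 genes in both lists was 0.743, compared with 1.08 over 5848 protein-coding genes of any peak height. The MIZ-1WT pileup was 9, 12, 13 and 45 at these 4 genes. Among shared single-copy promoter peaks the median ratio was lower in classes of higher pileup. It was 1.08 at 8 to 11 fragments, 0.746 at 12 to 19, 0.675 at 20 to 39 and 0.583 at 40 or more. Over all shared promoter peaks, single-copy or not, it was 1.32 at 20 to 39.

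Of 14 genes for proteins that act on mitochondrial RNA, 2 had a MIZ-1WT and 6 a MIZ-1DPOZ promoter peak. Besides Ptcd1, Lrpprc, whose product stabilises mitochondrial mRNA, was in both lists, with 9 fragments for MIZ-1WT and 15 for MIZ-1DPOZ (ratio 1.24). Ptcd2, Mrps27, Fastk and Fastkd5 had a MIZ-1DPOZ peak alone, with 11, 11, 15 and 9 fragments. Ptcd2 and Mrps27 shared a single summit, at 99344581 on chromosome 13. The other 8 genes, Ptcd3 among them, had no promoter peak in either list.

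All 7 genes with an SMP domain had a promoter peak in both lists, as did 5848 of 21951 protein-coding genes. The median ratio of the 7 was 1.17. Tex2 was at the low end of their range (0.258 to 1.81) and had the highest MIZ-1WT pileup. The other 6 had 7 to 12 fragments in the MIZ-1WT list. Esyt1, encoding a tether between the endoplasmic reticulum and the plasma membrane, had a ratio of 0.622, and its relatives Esyt2 and Esyt3 had 0.949 and 1.17. The ratio was 1.33 for Pdzd8, 1.24 for C2cd2 and 1.81 for C2cd2l. For Esyt2, Pdzd8, C2cd2 and C2cd2l the compared summits were 361 to 615 bp apart, so that these ratios set different positions against each other.

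The windows of 201 bp around the summits differed in composition. The Tex2 window held 75.6% G and C in the MIZ-1WT list and 82.1% at the MIZ-1DPOZ summit, against medians over promoter windows of 72.6% and 69.2%. Ptcd1 had 68.2% in both lists. Dctn6 had 60.2%, with 12 CpG dinucleotides, compared with 27 for Tex2, 26 for Ptcd1 and a median of 22. No base was repeat-masked at Tex2 and Dctn6, and 8.46% of bases were at Ptcd1.

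Short motifs were searched on both strands of these windows, without mismatches. ATCGAT occurred once at Dctn6 (34108472 to 34108477, centred 55.5 bp from the summit) and was not found in the Tex2 or Ptcd1 windows. Over all single-copy MIZ-1WT promoter windows, 37 of 8059 (0.459%) held it. The share differed with the height of the peak: peaks of 5 to 7 fragments held it in 0.0608%, those of 8 to 11 in 0.192% and those of 12 to 19 in 0.646% (95% Wilson interval 0.313 to 1.33). With 20 to 39 fragments 20.3% held it (12.04 to 32.3), and with 40 or more 9.72% (4.79 to 18.7). In the MIZ-1DPOZ list, the share was 0.440% of 455 windows at 20 to 39 fragments and 7.25% (3.13 to 15.9) of 69 at 40 or more. The same classes held 59 and 72 windows in the MIZ-1WT list. Pileups in these classes were not scaled to MIZ-1WT depth. The classes therefore hold unlike sets of peaks, and their shares do not measure a gain or loss of sites.

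CGATCG, searched for after the windows had been seen, occurred once at Tex2 (106613137 to 106613142) and once at Ptcd1 (145167117 to 145167122). In each window the match was centred 38.5 bp from the MIZ-1WT summit, on the upstream side at Tex2 and on the side of the gene at Ptcd1. The matches lay within a run of 10 letters common to both windows, gaccgatcgc, which 2 of 8955 MIZ-1WT promoter windows held, those of Tex2 and Ptcd1 themselves. The run was taken from these 2 windows, so its presence in both was fixed by that choice. Whether its count is low for a run of this length was not tested. Runs shared with Dctn6 were shorter, with 9 letters for Tex2 (in 7.18% of windows) and 8 for Ptcd1 (in 3.42%). CGATCG was found in 2.62% of single-copy MIZ-1WT promoter windows, in 8.47% (3.67 to 18.4) of those at 20 to 39 fragments and in 12.5% (6.72 to 22.1) of those at 40 or more. Its core CGATC, also chosen after the windows had been seen, is part of each CGATCG match and overlaps the ATCGAT match of Dctn6. Among the motifs searched, CGATC alone had a match in all 3 windows. It was found in 13.4% of single-copy windows. The share was 13.9% at 12 to 19 fragments, the class of Dctn6, and 29.2% (19.9 to 40.5) at 40 fragments or more.

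Of the other motifs, the GC box GGGCGG had 4 matches in the MIZ-1WT window of Tex2 and 7 in its MIZ-1DPOZ window, 1 in the windows of Ptcd1 and 0 at Dctn6. It was present in 63.7% of single-copy MIZ-1WT promoter windows. CCAAT occurred at Tex2 alone among the 3 genes and in 9.39% of windows. The E-box CACGTG was found at none of them. It was present in 4.47% of windows and in none of the 72 at 40 fragments or more.

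At single-copy MIZ-1WT promoter peaks of at least 20 fragments, the ratios of windows with and without these letters were set side by side as a description. All 19 peaks with ATCGAT overlapped a MIZ-1DPOZ peak, and 13 of them had a ratio under 0.5 (median 0.395, quartiles 0.282 and 0.607). Of the 112 without it, 104 overlapped and 31 had a ratio under 0.5 (median 0.655, quartiles 0.436 and 0.932). The median MIZ-1WT pileup was 36 with ATCGAT and 47 without. Dctn6, whose window holds ATCGAT, is not among these peaks, since its pileup of 19 is below the cutoff of 20. Its peak had no MIZ-1DPOZ overlap. For CGATCG, 9 of 14 peaks with the letters had a ratio under 0.5 (median 0.419) and 35 of 109 without them (median 0.643). Tex2 and Ptcd1 are among the 14, and CGATCG was searched for after their windows had been seen. The median MIZ-1WT pileup was 53.5 with CGATCG and 45 without, and this pileup is the denominator of the ratio.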

How the data were processed

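For each genotype, 1 ChIP library and 1 input library had been sequenced. Reads and inputs were not analysed here. According to the study's methods, reads were trimmed with Trimmomatic, aligned to mm10 with bwa and used for MACS2 peak calling. The submitters' processing notes list Bowtie2 2.2.6 and MACS2 2.1.0 instead of bwa and a later MACS2, and this was not resolved. The deposited lists of narrow peaks give, for each summit, a ratio (fold enrichment over the local background), −log10 p and −log10 q from a Poisson model, and a whole-number score derived from the q-value, which was not used here. Treatment of duplicate reads is not given in the sources used here.

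The members and gene lists were chosen with earlier results of these data known. Summit pileups were solved from the deposited fold and −log10 p-value under the formulas of MACS2, within 0.001 on the −log10 scale for 100% of peaks, and 100% of 1958 pileups were recovered when tested on simulated data. The lists held 34209 (MIZ-1WT) and 78357 (MIZ-1DPOZ) peaks, with median pileups of 9 and 12. From the most common backgrounds (0.860 and 1.35) and smallest widths (148 and 173 bp), the MIZ-1DPOZ library was 1.34 times deeper, and pileups were divided by this factor. Ratios carry exact binomial intervals with this factor fixed.

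A promoter peak had any part less than 2000 bp before or 1000 bp after a GENCODE M21 basic start, and overlaps were of at least 1 bp. Ratios used the highest overlapping MIZ-1DPOZ peak. For function lists, they used the highest promoter peak of each list. A single-copy summit had a median count of 1 for 5 sequences of 50 bases on the standard chromosomes. Named genes were the 3 members, genes with starts near their peaks, the 3 function lists and the 5 nearest genes for each member, of which 1 is not reported here. Alternatives were other scalings, cutoffs, promoter rules and overlap rules. The motif CGATCG with its core, and the pileup classes, were chosen after seeing the data. Fragments may be PCR copies, so all intervals cover counting error only. Versions were scipy 1.17.1, pandas 2.3.3, numpy 2.4.6, matplotlib 3.10.9, pysam 0.24.0 and numba 0.67.0 under Python 3.11.15.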

Additional observations from a re-analysis of the deposited data

How the results depend on the processing

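The pileup ratios of Tex2 and Ptcd1 stayed below 1 and within their intervals under the other scalings, with the deposited folds and with background subtracted. They ranged from 0.221 to 0.397 for Tex2 and from 0.481 to 0.754 for Ptcd1, and 0.397 is the ratio of the Tex2 folds. Scaled by background, Ptcd1 (0.481) came under 0.5. No ratio could be given for Dctn6 under any setting, since no MIZ-1DPOZ promoter peak was listed. All 3 genes kept a MIZ-1WT promoter peak under each cutoff and promoter rule tried. The number with a MIZ-1DPOZ promoter peak (2) became 1 when peaks were given to the start nearest the summit, which moved the Ptcd1 peak to Cpsf4. The number whose MIZ-1WT peak overlapped a MIZ-1DPOZ peak (2) became 1 at a reciprocal overlap of 50%, where the wide Tex2 peak no longer counted. Among all promoter peaks, the share with a ratio under 0.5 (1.78%) was 21.0% at a MIZ-1WT pileup of at least 20, 25.8% at 40 or more and 3.44% when scaled by background. The share without a MIZ-1DPOZ overlap (28.5%) was 7.36% at a pileup of at least 20, 1.02% at 40 or more and 26.7% for protein-coding genes, and it was 59.5% when summits had to lie within 100 bp. No paired analysis was possible because there was a single ChIP library for each genotype. How much these values vary from mouse to mouse is therefore not known.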
